A study of Mus musculus with 4 samples.

Results

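A set of 10 genes of the bone morphogenetic protein (BMP) system was followed through the cell classes of fracture callus and trabecular bone of mice given the glucocorticoid (GC) prednisolone or placebo. They are the ligands Bmp2, Bmp4, Bmp6, Bmp7, Gdf5 and Gdf10, the secreted antagonists Nog and Grem1, and the target genes Id1 and Id3. The members were chosen by symbol from the 32285 genes listed in each matrix. In callus, 10 of 10 members had a UMI (unique molecular identifier, standing for 1 captured RNA molecule) in a cell of both the control and the GC library. In trabecular bone 9 of 10 had a UMI in a cell of the control library and 10 of 10 in the GC library.

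BMPs and growth and differentiation factors (GDFs) are secreted dimers that bind receptor serine/threonine kinases, which phosphorylate SMAD proteins that enter the nucleus with SMAD4. Noggin (Nog) and gremlin (Grem1) bind the ligands outside the cell and keep them from their receptors. The ID genes are among the best known direct targets of SMAD signalling, although other signals act on them too. In a fracture, BMP signalling is known for driving mesenchymal progenitors to cartilage and bone, and the cartilage template is then replaced by bone.

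All 4 libraries came from male C57BL/6J mice 20 weeks old. The GC groups received prednisolone at 6.25 mg/kg/d and the control groups placebo, and tissue was collected at week 2 (of treatment for trabecular bone, after fracture for callus). The sample labels name slow-release pellets, whereas the methods of the study describe daily injection for the fracture model. The number of mice behind each library is not given in the sources used here. There was 1 droplet-based single-cell library per tissue and condition, so no difference between GC and control could be tested, a difference between libraries cannot be told apart from one between mice or between preparations, and each interval covers counting error only. Levels are UMIs of a gene per 1000000 UMIs summed over the cells of a class (CPM), with an exact Poisson 95% interval. Since libraries of this kind count molecules at one end of the RNA with differing efficiency, levels were compared between classes and libraries and not between genes.

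After filtering, 6717 control and 6890 GC callus cells and 3836 control and 4604 GC trabecular cells remained. Cells were clustered without the members, the other genes of the pathway, and lists of glucocorticoid response and dissociation stress genes. Clusters were named from lists of markers, so that each name means "like" that cell type. The callus classes that matter most here held 1822 control and 993 GC cells for chondrocyte-like cells, 663 and 745 for hypertrophic chondrocyte-like, 86 and 81 for stromal or skeletal progenitor-like, 68 and 54 for osteoblast or osteocyte-like, and 52 and 80 for endothelial-like cells. A further 1371 GC barcodes, or 19.9% of GC callus cells, carried cartilage RNA together with blood or endothelial markers and had 14 counterparts in the control. They were kept apart as mixed barcodes. Free cartilage RNA was also present in the control callus, where empty droplets held Bmp2 at 135 CPM and Id1 at 172 CPM. B cell-like cells, which should lack the skeletal genes, gave the level of background in cells, with Bmp2 at 10.4 CPM in control and 20.6 CPM in GC callus.

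The members lie on several chromosomes of GRCm38 (GENCODE M21 annotation). Bmp2 (ENSMUSG00000027358) is at chr2:133552159-133562885 on the plus strand, Bmp4 (ENSMUSG00000021835) at chr14:46383520-46390669 on the minus strand and Bmp6 (ENSMUSG00000039004) at chr13:38345107-38500302 on the plus strand. Bmp7 (ENSMUSG00000008999) is at chr2:172868012-172940321, minus, Gdf5 (ENSMUSG00000038259) at chr2:155941023-155945367, minus, and Gdf10 (ENSMUSG00000021943) at chr14:33923587-33937983, plus. Nog (ENSMUSG00000048616) is at chr11:89300638-89302332, minus, and Grem1 (ENSMUSG00000074934) at chr2:113746164-113758646, minus. Id1 (ENSMUSG00000042745) is at chr2:152736251-152737410, plus, and Id3 (ENSMUSG00000007872) at chr4:136143497-136145755, plus.

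Promoter sequence from RefSeq (GRCm38.p6) was at hand for 5 of the 10 members, namely Bmp4, Bmp6, Gdf10, Grem1 and Id3. The 250 bases before the start of Grem1 are shown because Grem1 had the lowest GC-to-control ratio of the members in chondrocyte-like cells. They span chr2:113758649-113758898 and are read on the minus strand, with the letters CAGAC in capitals.
Grem1: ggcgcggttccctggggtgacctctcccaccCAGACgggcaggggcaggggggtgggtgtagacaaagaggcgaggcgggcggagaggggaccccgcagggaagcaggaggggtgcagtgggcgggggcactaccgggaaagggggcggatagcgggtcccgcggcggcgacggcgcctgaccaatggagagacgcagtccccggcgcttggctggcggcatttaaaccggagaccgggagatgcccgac
CAGAC is the core of the SMAD-binding element and was searched on both strands. In Grem1 it lay 219 bases before the start. It lay 119 bases before the start in Bmp6 and 98 bases in Gdf10. Id3 held it 167 and 68 bases before its RefSeq start, in a window that lies inside the GENCODE gene span given above, so the annotations start this gene at different places. The letters were present in 4 of the 5 member promoters and in 42.2% of 32851 mouse promoter windows of 250 bases. The inverted-repeat palindrome bound by the glucocorticoid receptor, searched on both strands with no mismatch, was in 0 of the 5 members and in 3 of all windows (0.00913%). A match is a description of the letters and not a binding site.

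Most members were highest in skeletal classes. The same count was not taken over all genes, so it has no background and does not set the members apart from other genes. Of 18 callus classes, a skeletal class (chondrocyte-like, hypertrophic, stromal or osteoblast-like) was highest for 9 of 10 members in the control library, for 7 in the GC library and for 7 in both. In trabecular bone, with 11 classes, the stromal or progenitor-like cells were highest for 9 members in control, 9 in GC and 8 in both. Some of these ranks rest on few UMIs, with 1 for Bmp7 in control and 1 for Gdf5 and 3 for Nog in GC. For others, such as Bmp2 and Id1 in control, the intervals of the first 2 classes overlapped. The main exception was Id1, whose highest callus level was in endothelial-like cells in both libraries. The plot of each member by class and library shows the levels of selected callus classes.

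**Figure D1:**
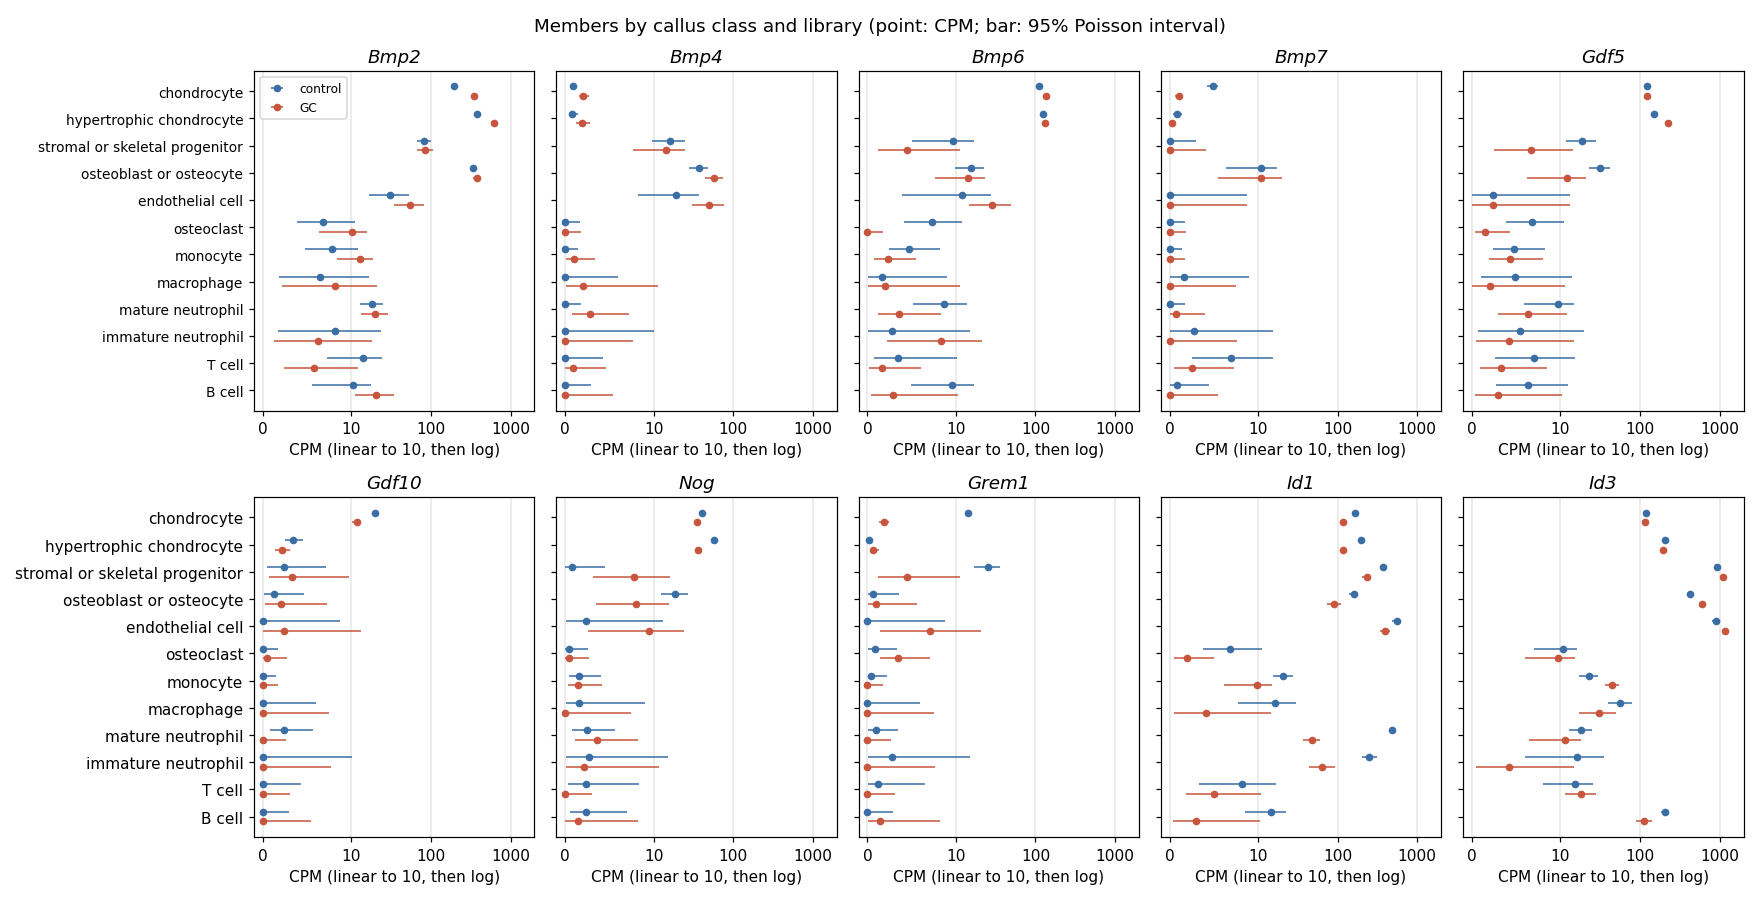
Level of each member (CPM) in selected callus classes of the control and GC libraries, with 95% Poisson intervals as bars. Bmp6, Gdf5 and Nog have their 2 highest callus levels in the chondrocyte-like and hypertrophic classes. Bmp2 is highest in hypertrophic cells, followed by osteoblast-like cells, and Id1 is highest in endothelial-like cells, followed in control by mature neutrophils (478 CPM).

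Bmp2, a ligand that fracture repair is known to need, was highest in hypertrophic chondrocyte-like cells, which are the enlarged, collagen X-making cells at the end of the cartilage sequence. Bmp2 stood at 383 CPM (373 to 393) in control and 614 CPM (601 to 627) in GC hypertrophic cells, from 5602 and 8154 UMIs. The ratio of GC to control was 1.60 (1.55 to 1.66), and the intervals of the libraries did not overlap. In the other chondrocyte-like cells Bmp2 was 194 CPM (190 to 198) in control and 347 CPM (339 to 354) in GC, a ratio of 1.79 (1.73 to 1.84). Bmp2 was therefore higher in the GC library in both cartilage classes by less than the 2-fold used as a limit. In osteoblast or osteocyte-like cells Bmp2 was 338 CPM (310 to 368) in control and 379 CPM (342 to 419) in GC, and the ratio of 1.12 (0.979 to 1.28) included 1. In stromal or progenitor-like cells the levels of 82.4 and 84.3 CPM overlapped as well, at a ratio of 1.02 (0.75 to 1.39). The intervals of the highest and the next class, hypertrophic and osteoblast-like, did not overlap in either library. Skeletal classes held 98.7% of all Bmp2 UMIs of cells in the control callus and 79.1% in the GC callus. The GC total includes the mixed barcodes, which carried Bmp2 at 702 CPM and belong to no skeletal class.

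The higher Bmp2 of the GC hypertrophic class was not shared by most of its clusters. The class was composed of 4 clusters, and the libraries were spread over them unequally. Both libraries were clustered together without correction. Another mix of cells therefore cannot be told apart from a shifted state of the same cells. The cluster with the most GC cells (number 6 in the plot of clusters, 33 control and 397 GC cells) had Bmp2 at 625 CPM in control and 943 CPM in GC, a ratio of 1.51 (1.34 to 1.70). In the other 3 clusters the direction was the opposite. Cluster 4 (376 control and 81 GC cells) had 423 and 332 CPM, a ratio of 0.786 (0.716 to 0.861). Cluster 9 (173 and 121 cells) had 254 and 130 CPM, a ratio of 0.51 (0.446 to 0.582), and cluster 10 (81 and 146 cells) had 442 and 326 CPM, a ratio of 0.736 (0.666 to 0.814). Bmp2 was thus lower in the GC library in 3 of 4 hypertrophic clusters, while 397 of 745 GC cells but 33 of 663 control cells of the class lay in the cluster with the most Bmp2. When only clusters with at least 20% of their cells from each library were summed, the log2 ratio (log2 of CPM + 5) of Bmp2 in hypertrophic cells was -0.37 in place of 0.67. Bmp2 and Gdf5 were among the 10 leading genes of cluster 6 although neither had entered the clustering. In the other chondrocyte-like cells the direction was shared more widely. Bmp2 was 156 CPM in control and 310 CPM in GC cells of cluster 0, 416 and 615 CPM in cluster 1, and 45.1 and 84.6 CPM in cluster 7. Cluster 1 was itself led by Col10a1, the collagen X gene, so the class names do not divide cells by collagen X. It held 5244 of 9501 control and 3526 of 7934 GC Bmp2 UMIs of the chondrocyte-like class. With the same 20% limit the log2 ratio of Bmp2 in that class was 0.51 in place of 0.82.

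Thinning each cell to 1000 UMIs gave the share of cells with Bmp2 at equal depth. In hypertrophic cells 28.1% of control and 37.0% of GC cells kept a Bmp2 UMI, against 1.02% and 2.87% of B cell-like cells. In the other chondrocyte-like cells the shares were 14.3% and 23.6%. Without thinning, the shares in hypertrophic cells were 79.9% and 79.3%, at median depths of 20404 and 16740 UMIs per cell (1918.5 and 1682.5 in B cell-like cells).

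**Figure D2:**
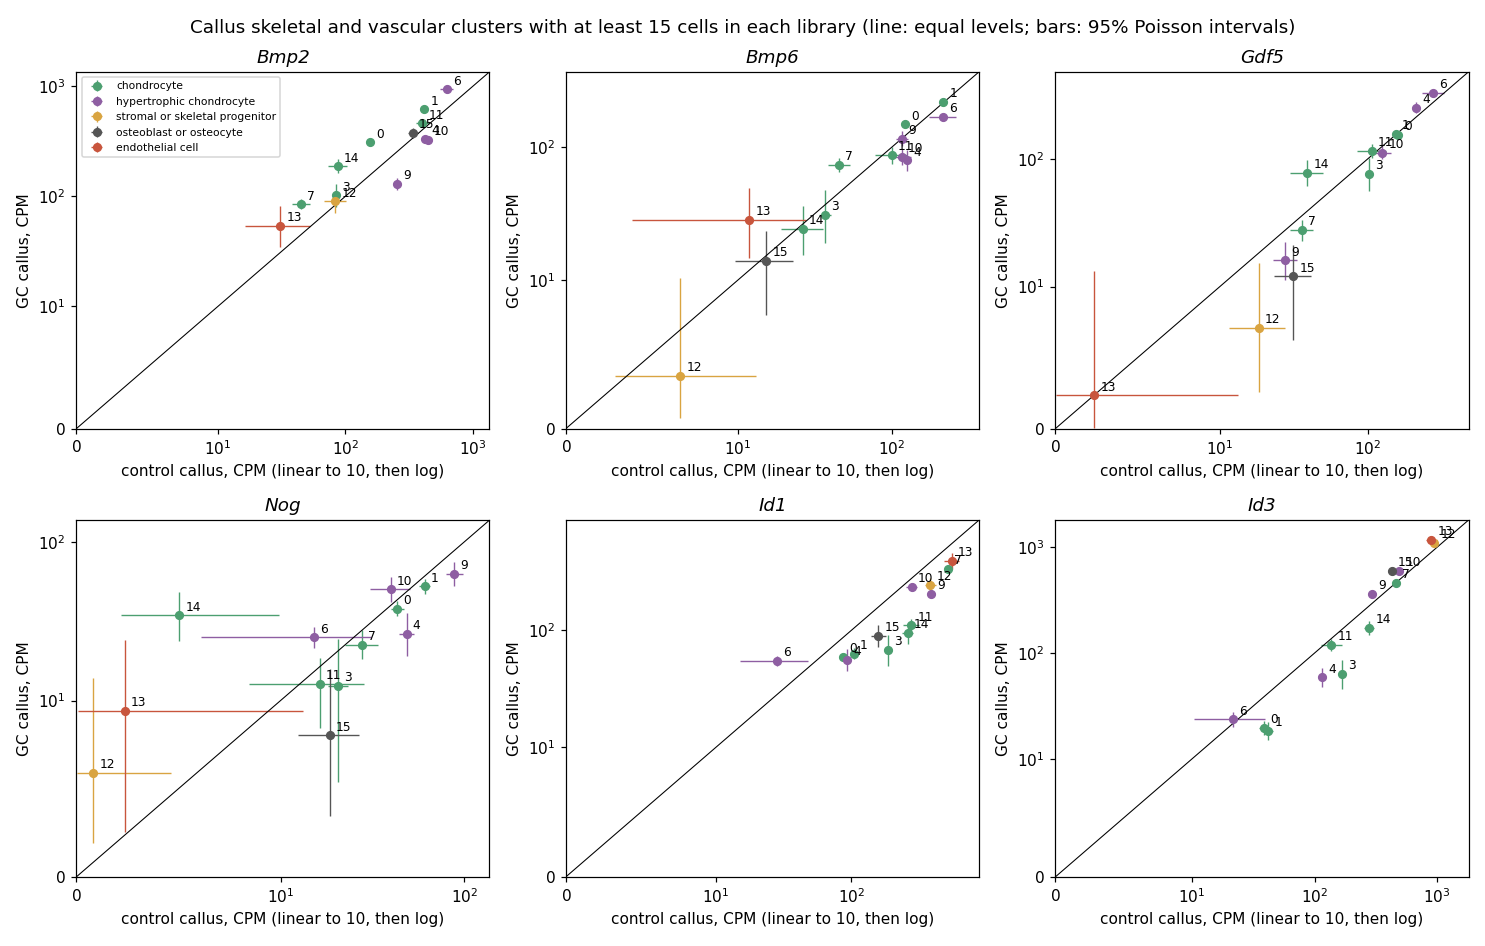
Members in single callus clusters, control CPM on the horizontal axis and GC CPM on the vertical axis (linear to 10, then logarithmic), with 95% Poisson intervals and a line of equal levels. Points above the line are higher in GC. For Bmp2 the hypertrophic clusters 4, 9 and 10 lie below the line and cluster 6 above it, whereas Id1 lies below it in 12 of 13 clusters.

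Bmp6, which is closely related to Bmp7 and made in cartilage, differed less than Bmp2 in both cartilage classes. Bmp4, a ligand close to Bmp2, had few UMIs. Bmp6 was 112 CPM (109 to 115) in control and 137 CPM (132 to 142) in GC chondrocyte-like cells, a ratio of 1.22 (1.17 to 1.28). In hypertrophic cells it was 124 and 132 CPM, a ratio of 1.06 (0.994 to 1.13) that included 1. Single clusters were divided, since the Bmp6 ratio was below 1 in 7 of 10 clusters, with 3 intervals below 1 and 2 above. In clusters with at least 20% of cells from each library its log2 ratio was -0.04 in place of 0.28 in chondrocyte-like and -0.22 in place of 0.08 in hypertrophic cells. In the control library the hypertrophic class was the higher of these 2 classes without overlap, and in the GC library the intervals of both overlapped. Bmp4 was highest in osteoblast or osteocyte-like cells, at 37.2 CPM (28.2 to 48.0) in control and 58.1 CPM (44.2 to 75.2) in GC. The ratio of 1.57 (1.07 to 2.29) rests on 58 UMIs in each library. In endothelial-like cells, the next highest, Bmp4 had 8 and 21 UMIs, or 19.0 and 49.5 CPM. The intervals of these first 2 classes overlapped in both libraries. In chondrocyte-like cells Bmp4 was near background, at 0.939 and 2.05 CPM from 46 and 47 UMIs. The ratio there was 2.19 (1.42 to 3.36), yet the log2 ratio was 0.25 because 5 CPM were added to both levels.

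Bmp7, a ligand also used clinically as a recombinant protein, was sparse. In chondrocyte-like cells it had 238 UMIs in control and 23 in GC, or 4.86 CPM (4.26 to 5.52) and 1.0 CPM (0.637 to 1.51). The ratio was 0.207 (0.129 to 0.318) with no overlap, yet the log2 ratio was -0.72 because 5 CPM were added to both levels. Of the control UMIs, 115 came from 1 cluster led by Ucma, Cnmd and H19 (number 3), which had 457 control and 28 GC cells and 0 Bmp7 UMIs in GC. In cluster 0, with 469 control and 326 GC cells, Bmp7 had 60 and 11 UMIs, a ratio of 0.273 (0.13 to 0.525). The highest callus level of Bmp7 was in osteoblast or osteocyte-like cells, at 10.9 and 11.0 CPM from 17 and 11 UMIs.

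Gdf5, the joint and cartilage ligand of this set, differed in opposite directions between classes. In hypertrophic cells, where it was highest, Gdf5 was 151 CPM (145 to 158) in control and 225 CPM (217 to 233) in GC, a ratio of 1.48 (1.4 to 1.57). In the other chondrocyte-like cells it was 121 and 122 CPM, a ratio of 1.0 (0.96 to 1.05). In osteoblast or osteocyte-like cells it was 31.4 CPM (23.2 to 41.5) in control and 12.0 CPM (6.22 to 21) in GC, from 49 and 12 UMIs. That ratio of 0.383 (0.186 to 0.731) was past 2-fold, at a log2 ratio of -1.10. Summed cartilage genes in the same osteoblast-like cells were 17712 CPM in control and 5666 CPM in GC, and their part in the Gdf5 difference was not tested. The 4 hypertrophic clusters were split. Gdf5 was 277 CPM in control and 328 CPM in GC in cluster 6 and 211 and 251 CPM in cluster 4, but 27.6 and 16 CPM in cluster 9 (ratio 0.581, 0.386 to 0.854) and 125 and 112 CPM in cluster 10 (ratio 0.892, 0.743 to 1.07). Clusters 9 and 10 are the hypertrophic clusters with at least 20% of cells from each library, and their sum gave a log2 ratio of 0.29 although Gdf5 was below 1 in both, since the libraries fill them in unequal shares. Over 11 clusters of the callus the Gdf5 ratio was below 1 in 6. In control erythroid cells 26 of 28 Gdf5 UMIs lay in 1 cell.

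Gdf10, a ligand of the same superfamily that also goes by the name BMP3B, was highest in callus in chondrocyte-like cells. They held 93.5% of its UMIs in the control callus and 67.4% in the GC callus. The GC total includes the 1371 mixed barcodes, so the lower share does not show that Gdf10 moved to other classes. Gdf10 was 19.5 CPM (18.3 to 20.8) in control and 11.7 CPM (10.3 to 13.1) in GC chondrocyte-like cells, a ratio of 0.597 (0.519 to 0.684). Cluster 3 carried 592 of 957 control UMIs, at 48.5 CPM, and 19 GC UMIs, at 29.5 CPM. Cluster 0 had the opposite direction, at 7.74 CPM in control and 15.9 CPM in GC, a ratio of 2.05 (1.58 to 2.66). Cluster 7 had 18.2 and 12.1 CPM, a ratio of 0.666 (0.449 to 0.983). With clusters of at least 20% of cells from each library the log2 ratio of Gdf10 was 0.49 in place of -0.56. In hypertrophic cells Gdf10 was 3.42 and 2.11 CPM.

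Of the antagonists, Grem1 could be compared in chondrocyte-like cells and Nog in both cartilage classes. Grem1 had 694 UMIs in control and 42 in GC chondrocyte-like cells, or 14.2 CPM (13.1 to 15.3) and 1.83 CPM (1.32 to 2.48). The ratio was 0.129 (0.0925 to 0.177), that is 7.73-fold (5.66 to 10.8) higher in control, and its log2 ratio was -1.49. Of the 10 members Grem1 was the 1 past 2-fold in this comparison, in which 0.76% of 12902 genes were called (2-fold or more on CPM + 5, with at least 50 UMIs over both libraries). Cluster 3 again held most of the control UMIs, 469 of 694, and had 3 in GC, at 38.5 and 4.65 CPM, a ratio of 0.121 (0.0249 to 0.356). In cluster 0, with 469 control and 326 GC cells, Grem1 was 6.85 and 2.66 CPM, a ratio of 0.389 (0.237 to 0.615). Grem1 was thus lower in GC in both clusters that could be compared, and with clusters of at least 20% from each library its log2 ratio was -0.56 and no longer past 2-fold. Without thinning, 10.5% of control and 1.71% of GC chondrocyte-like cells had a Grem1 UMI. Thinned to 1000 UMIs, the shares were 1.43% and 0.101%.

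Grem1 was highest in control stromal or progenitor-like cells, at 25.0 CPM, above the chondrocyte-like level without overlap. The stromal class had 31 control UMIs, held by 9 of 86 cells, and 4 GC UMIs, or 4.44 CPM. The ratio was 0.177 (0.0454 to 0.501), on fewer UMIs than the minimum of 50. In trabecular stromal cells the order was the other way, with 8 UMIs in 17 control cells (64.0 CPM) and 24 UMIs in 44 GC cells (85.8 CPM).

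Nog was 57.8 CPM (54.0 to 61.8) in control and 36.4 CPM (33.2 to 39.8) in GC hypertrophic cells, a ratio of 0.629 (0.561 to 0.704). In the other chondrocyte-like cells it was 40.5 CPM (38.7 to 42.3) and 35.4 CPM (33.0 to 37.9), a ratio of 0.875 (0.806 to 0.95). Neither difference reached 2-fold, although the intervals did not overlap in either class. The Nog ratio was below 1 in 6 of 8 clusters, with 3 intervals below 1 and 0 above. Cluster 4 had 48.5 and 26.3 CPM, cluster 9 had 88.4 and 62.7 CPM, while clusters 6 and 10 had ratios of 1.65 and 1.27 whose intervals included 1. In osteoblast or osteocyte-like cells Nog had 29 and 8 UMIs, or 18.6 and 8.02 CPM.

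Beside these cartilage values, both cartilage classes differed between libraries. The 12 markers of the chondrocyte-like class had a UMI for 12 of 12 in both libraries and summed to 103992 CPM in control and 81718 CPM in GC. Summed osteoblast markers in it were 17470 CPM in control and 34222 CPM in GC, a list of 10 genes with a UMI for 10 of 10 in both. In hypertrophic cells the 7 hypertrophic markers summed to 42698 and 31528 CPM, the chondrocyte markers to 52275 and 36442 CPM and the osteoblast markers to 13480 and 19937 CPM, with a UMI for every gene of these lists in both libraries. Genes known to respond to glucocorticoids summed to 2512 and 3389 CPM in chondrocyte-like and to 2175 and 3533 CPM in hypertrophic cells. Genes of the dissociation stress response summed to 4164 and 3103 CPM in chondrocyte-like and 8686 and 7320 CPM in hypertrophic cells. The part of these differences in the member ratios was not tested.

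**Figure D3:**
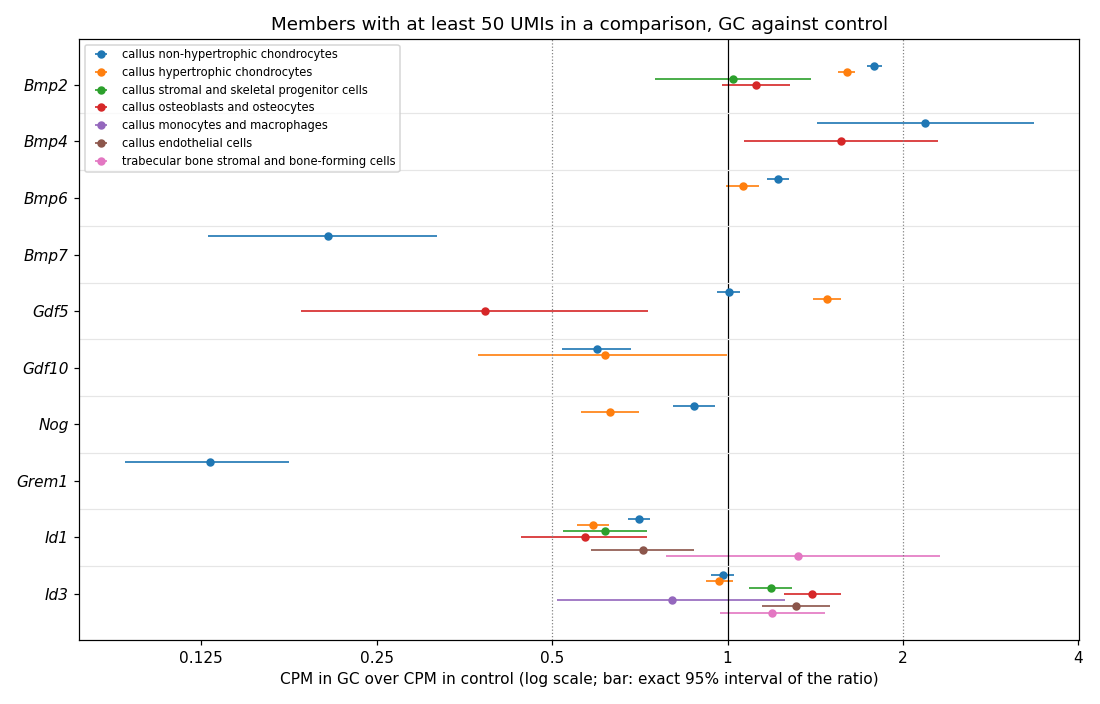
GC-to-control ratio of each member in the 7 class comparisons, on a log2 scale with 95% intervals, for members with at least 50 UMIs over both libraries. Grem1 in chondrocyte-like cells (0.129) and Gdf5 in osteoblast-like cells (0.383) are the members past 2-fold when 5 CPM are added to both levels. The plotted ratios have no such addition, and those of Bmp7 (0.207) and Bmp4 (2.19) in chondrocyte-like cells also lie past 2-fold. Id1 is below 1 in each of its 5 callus comparisons.

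Id1, an inhibitor of basic helix-loop-helix transcription factors, was lower in the GC callus in each class where it could be compared. In endothelial-like cells, where it was highest, Id1 was 553 CPM (485 to 629) in control and 396 CPM (338 to 461) in GC, a ratio of 0.716 (0.583 to 0.877). In stromal or progenitor-like cells it was 376 CPM (342 to 411) and 232 CPM (201 to 265), a ratio of 0.617 (0.521 to 0.728). Each of these pairs of intervals was apart. In hypertrophic cells Id1 was 197 CPM (190 to 204) in control and 116 CPM (110 to 122) in GC, a ratio of 0.588 (0.552 to 0.626). In the other chondrocyte-like cells it was 164 CPM (161 to 168) and 116 CPM (111 to 120), a ratio of 0.705 (0.675 to 0.737). In osteoblast or osteocyte-like cells it was 158 CPM (139 to 179) and 90.2 CPM (72.6 to 111), a ratio of 0.57 (0.443 to 0.729). Callus classes were counted if they had at least 50 Id1 UMIs, 15 cells in each library and no cluster with more markers of another class. Among these the ratio was below 1 in 8 of 8, and the interval was below 1 in 8 of 8. Monocytes, left out for such a cluster, had a ratio of 0.477 (0.273 to 0.804). Among single skeletal and endothelial clusters Id1 was lower in 12 of 13, the exception being cluster 6, with 28.1 CPM in control and 54.9 CPM in GC (ratio 1.95, 1.13 to 3.70). Of 2705 genes measured in all 5 skeletal and endothelial comparisons of the callus, 76 (2.81%) had intervals below 1 in each and 64 (2.37%) above 1 in each. Id1 was 1 of the 76, beside cartilage collagens such as Col2a1 and Col10a1, ribosomal protein genes, and the early response genes Jund and Ier3.

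Of those 8 classes, mature neutrophils had the largest Id1 difference. Mature neutrophil-like cells had 988 Id1 UMIs in control and 67 in GC, or 478 CPM (449 to 509) and 47.5 CPM (36.8 to 60.3). The level was 10.1-fold (7.86 to 13.1) higher in control, a log2 ratio of -3.20. The control UMIs were spread over 454 of 1566 cells, with at most 15 in 1 cell. Median depth in this class was 1270 UMIs per cell in control and 1135 in GC. The libraries filled different clusters of this class, and in both clusters Id1 was higher in control, at 258 against 47.8 CPM in the cluster with 543 control and 1173 GC cells and at 591 against 38.6 CPM in the cluster with 1023 and 41 cells. Thinned to 1000 UMIs, 26.8% of 1282 control cells and 4.26% of 846 GC cells had an Id1 UMI, with 284 and 368 cells too shallow to keep. The shares without thinning were 29.0% and 4.86%, and thinned B cell-like cells gave 1.53% and 0% (exact binomial upper bound 1.05%). Immature neutrophil-like cells had 251 CPM in control and 64.4 CPM in GC, a ratio of 0.257 (0.165 to 0.39). Granulocyte-monocyte progenitor-like cells had 67.4 and 17.2 CPM, a ratio of 0.254 (0.117 to 0.497). Empty droplets of the control callus held Id1 at 172 CPM, and no such droplets were listed for the GC callus. That level was below those of control mature and immature neutrophils but above that of control granulocyte-monocyte progenitor-like cells. In B cell-like cells Id1 was 14.3 CPM in control and 2.94 CPM in GC callus, so this background too was higher in control.

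In trabecular bone Id1 did not share this direction. The ratio was above 1 in 7 of 7 classes counted in the same way, and its interval was above 1 in 3 of them. Immature neutrophils, left out for a cluster with more markers of another class, had a ratio of 1.32 (1.21 to 1.44). Monocyte-like cells had 31.4 CPM (26.3 to 37.3) in control and 50.1 CPM (43.5 to 57.5) in GC, a ratio of 1.60 (1.28 to 2.00). Granulocyte-monocyte progenitor-like cells had 55.2 and 69.5 CPM, a ratio of 1.26 (1.07 to 1.48). Mature neutrophil-like cells had 156 CPM (147 to 165) and 175 CPM (164 to 186), a ratio of 1.12 (1.03 to 1.22). That last ratio was not shared by the clusters within the class, since Id1 was 180 CPM in control and 132 CPM in GC in 1 cluster and 117 and 119 CPM in another, and the remaining clusters were filled by 1 library each. The intervals of the ratio included 1 in stromal, erythroid, mast cell or basophil and stem or progenitor cells. Id1 levels in stromal cells were 160 CPM (97.7 to 247) in control and 211 CPM (161 to 272) in GC.

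**Figure D4:**
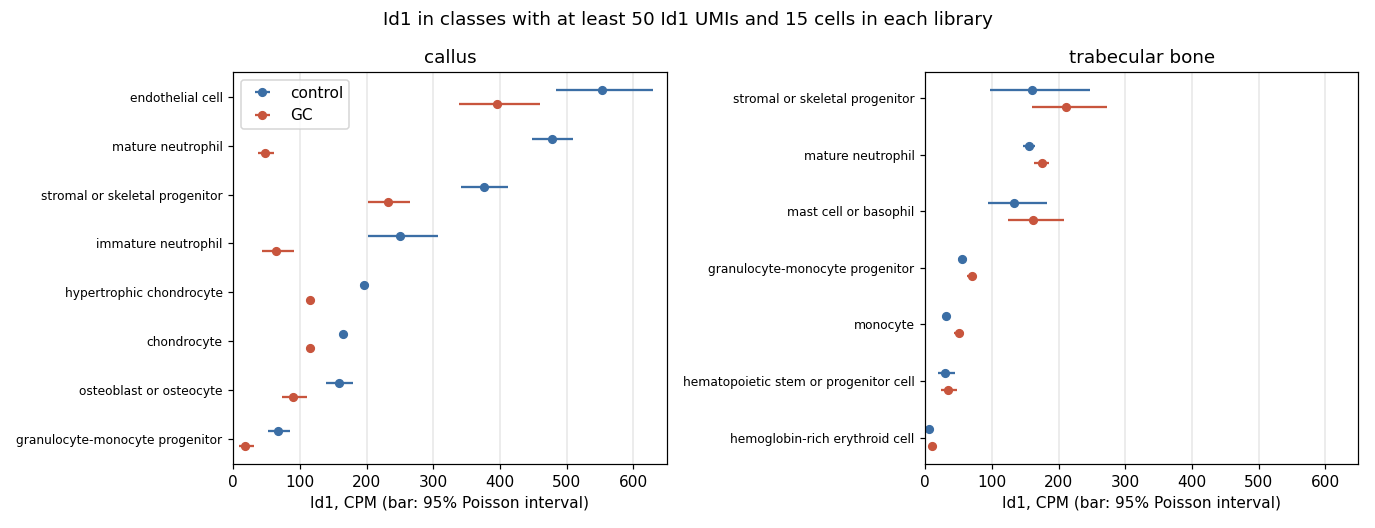
Id1 level (CPM, with 95% Poisson intervals) in control and GC cells of the classes with at least 50 Id1 UMIs and 15 cells in each library, callus on the left and trabecular bone on the right. Classes holding a cluster with more markers of another class are not shown. The GC level lies below the control level in 8 of 8 callus classes, by most in mature neutrophils (478 against 47.5 CPM), and above it in 7 of 7 trabecular classes.

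Id3, another inhibitor of the same family, did not follow Id1 in the levels of whole classes. It was level between libraries in the cartilage classes, at 119 and 117 CPM in chondrocyte-like cells (ratio 0.982, 0.938 to 1.03) and at 204 and 197 CPM in hypertrophic cells (ratio 0.968, 0.918 to 1.02). In 3 other skeletal and vascular classes Id3 was higher in GC. Osteoblast or osteocyte-like cells had 428 CPM (396 to 462) in control and 598 CPM (551 to 648) in GC, a ratio of 1.4 (1.25 to 1.56). Endothelial-like cells had 898 CPM (809 to 993) and 1176 CPM (1075 to 1284), a ratio of 1.31 (1.14 to 1.5). Stromal or progenitor-like cells had 939 CPM (886 to 995) and 1114 CPM (1047 to 1185), a ratio of 1.19 (1.09 to 1.29). In these same 3 classes Id1 was lower in GC with its interval below 1. Over the 11 callus classes in which every cluster could be compared, Id3 was below 1 in 7 and above 1 in 4, with 2 intervals below 1 and 3 above. In 2 classes left out of that count, because a cluster had more markers of another class, Id3 was higher in GC, at 42.2 and 127 CPM in conventional dendritic cells (ratio 3.01, 1.91 to 4.89) and 22.8 and 44.4 CPM in monocytes (ratio 1.95, 1.39 to 2.75).

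Of the 11 classes, the 2 with Id3 intervals below 1 were blood cells. B cell-like cells, which express Id3 themselves, had 206 CPM in control and 112 CPM in GC callus, a ratio of 0.542 (0.414 to 0.702), and granulocyte-monocyte progenitor-like cells had 63.5 and 27.4 CPM. In trabecular bone B cell-like cells had 582 CPM in 315 control cells and 241 CPM in 16 GC cells. The 16 GC cells lay in 1 of 3 B cell clusters, and the other clusters held 141 and 77 control cells and 0 GC cells. The even level of the cartilage classes was not shared by their clusters. Over 13 skeletal and endothelial clusters 5 Id3 intervals lay below 1, all of them in cartilage clusters, and 5 above, of which 2 were in the hypertrophic clusters 9 and 10. The Id1 interval lay below 1 in each of these clusters, so Id3 went with Id1 in 5 and against it in 5. Clusters 0 and 1 of the chondrocyte-like cells had Id3 at 38.8 CPM in control against 19.8 CPM in GC and at 42 against 18.5 CPM. Summing clusters with at least 20% of cells from each library gave a log2 ratio of Id3 of 0.21 in chondrocyte-like cells, although the ratio was below 1 in each of the 5 clusters summed, from 0.441 in cluster 1 to 0.993 in cluster 7. These sums too mix clusters that the libraries fill in unequal shares. The highest class of Id3 was stromal in control and endothelial-like in GC, and the intervals of the first 2 classes overlapped in both.

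Of 30 member values with enough UMIs over the 7 comparisons, 2 were past 2-fold. In chondrocyte-like cells it was 1 of 10 members (Grem1), against 0.76% of 12902 genes. In hypertrophic cells 0 of 7 measured members were past 2-fold, where 0.754% of 11144 genes were. In stromal or progenitor-like cells it was 0 of 3, against 2.95% of 5589 genes, and in osteoblast or osteocyte-like cells 1 of 5 (Gdf5), against 3.0% of 5175. In callus monocytes and macrophages, where Id3 alone was measured at 58.7 and 47.2 CPM (ratio 0.803, 0.51 to 1.25), it was 0 of 1, against 3.45% of 4434 genes. With the monocyte cluster left out for its other markers kept in, the log2 ratio of Id3 there was 0.44 in place of -0.29. In endothelial-like cells it was 0 of 2, against 3.62% of 3149. The median log2 ratio of the measured members was -0.10 in chondrocyte-like, -0.05 in hypertrophic, 0.03 in stromal, 0.16 in osteoblast-like and -0.04 in endothelial-like cells. Over all genes measured the medians of the same classes lay between -0.03 and 0.00.

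Trabecular bone had few cells that make these ligands. No trabecular cluster was named osteoblast or osteocyte-like. Its stromal or progenitor-like cells numbered 17 in control and 44 in GC. In these cells 0 of 2 members with enough UMIs were past 2-fold, in a comparison that called 15.8% of 1231 genes. Id3 was 1031 CPM (861 to 1225) and 1230 CPM (1103 to 1367), a ratio of 1.19 (0.971 to 1.47). The other members had too few UMIs for a ratio. Bmp4 stood at 79.9 and 89.4 CPM from 10 and 25 UMIs, Bmp2 at 95.9 and 39.3 CPM from 12 and 11 UMIs, and Gdf10 at 48.0 and 42.9 CPM from 6 and 12 UMIs. Bmp6 had 4 and 8 UMIs, Nog 5 and 3, Bmp7 1 and 0, and Gdf5 0 and 1. Markers of other cells moved with the library in this class. Summed mature neutrophil markers were 2486 CPM in control and 24889 CPM in GC, hemoglobin genes 1559 and 20388 CPM, and osteoblast markers 10513 and 15819 CPM, with Dmp1 and Mepe at 0 in both. Their part in the ratios was not tested. In this tissue 8 Bmp2 UMIs of control T cell-like cells came from 1 cell.

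The other genes of the pathway, 61 in 7 groups, gave 169 values with enough UMIs over the 7 comparisons. Of these, 1 was past 2-fold higher in GC and 5 lower. Levels in single clusters were not taken for the pathway genes. Since the libraries filled the clusters of a class unequally, whether a class ratio was shared by its clusters was not tested. In chondrocyte-like cells 1 of 46 measured pathway genes passed, in hypertrophic cells 2 of 40 and in stromal cells 0 of 26. In osteoblast-like cells it was 1 of 24, in monocytes and macrophages 0 of 8 and in endothelial-like cells 0 of 18. In trabecular stromal cells 2 of 7 passed. Over all genes the shares past 2-fold were, in the same order, 0.76%, 0.754%, 2.95%, 3.0%, 3.45%, 3.62% and 15.8%. Among the ligands, Gdf15, a stress-responsive member of the superfamily, was 26.2 CPM in control and 7.53 CPM in GC hypertrophic cells, a ratio of 0.287 (0.228 to 0.359). The ligands with the most callus UMIs, Bmp5 and Bmp8a, did not pass. Bmp5 was 12.4 and 16.1 CPM in chondrocyte-like cells, and Bmp8a was 28.5 and 28.2 CPM in hypertrophic and 42.3 and 37.1 CPM in osteoblast-like cells.

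The secreted antagonists and modulators held 3 of the calls in callus. Fst, which encodes follistatin, an activin- and BMP-binding protein, was 10.3 CPM in control and 46.5 CPM in GC hypertrophic cells, a ratio of 4.5 (3.76 to 5.42). Chrdl2 and Chrdl1, both chordin-like BMP-binding proteins, were lower in GC. Chrdl2 was 71.8 and 28.3 CPM in chondrocyte-like cells, a ratio of 0.395 (0.363 to 0.43), and Chrdl1 was 51.9 and 17.0 CPM in osteoblast-like cells, a ratio of 0.328 (0.182 to 0.559). Secreted antagonists thus differed in both directions. Twsg1 and Crim1, the 2 with the most callus UMIs, were 143 and 206 CPM and 96.2 and 110 CPM in chondrocyte-like cells, and Crim1 was 202 and 377 CPM in endothelial-like cells.

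No receptor or SMAD gene was past 2-fold in any of the 7 comparisons. Over all genes the share was 0.754% to 3.62% in the callus comparisons and 15.8% in the trabecular one. With at most 10 receptor and 4 SMAD genes measured in a comparison, 0 calls lies near these shares. The type II receptor gene Bmpr2 was 120 and 121 CPM in chondrocyte-like, 128 and 133 CPM in hypertrophic and 534 and 547 CPM in endothelial-like cells. The type I receptor gene Acvr1 was 83.9 and 104 CPM in chondrocyte-like and 64.9 and 97.3 CPM in hypertrophic cells. Smad4, the common partner SMAD, was 63.8 and 80.8 CPM in chondrocyte-like cells, and Smad5, which carries the BMP signal, was 73.5 and 78.7 CPM. Among inhibitors inside the cell or at its membrane, the inhibitory Smad7 was 277 and 274 CPM and the pseudoreceptor Bambi 114 and 148 CPM in chondrocyte-like cells.

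Of the proteases that cleave the ligand precursors, Pcsk6 was 205 and 229 CPM and Furin 171 and 208 CPM in chondrocyte-like cells. In trabecular stromal cells Pcsk6 was 232 and 89.4 CPM and the secreted glycoprotein gene Fstl1 1135 and 418 CPM, both past 2-fold lower. Of the other targets, Id2, a relative of Id1 and Id3, was 535 and 327 CPM in chondrocyte-like cells, a ratio of 0.612 (0.596 to 0.628), and 400 and 241 CPM in hypertrophic cells. In endothelial-like cells Id2 was 271 and 302 CPM, a difference under 2-fold that is poorly resolved in this class. Dlx5, an osteogenic homeobox gene, was 30.2 and 20.4 CPM in hypertrophic cells.

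The genes whose levels over 18 callus classes and both libraries (36 points) ran closest to each member were ranked by Pearson's r among 11198 genes. The points share libraries and depth, so r is a description. Bmp2 was closest to Cpe (r = 0.947), Ptgis and Snhg18, Bmp4 to Nhsl1 (0.963), Lepr and Hoxb2, and Bmp6 to Lmcd1 (0.903), Scube3 and Kank1. Gdf5 was closest to Gm8883 (0.949), Scube3 and Aldh1a3, and Nog to Scube3 (0.915), Kank1 and Ddit4l, so that Scube3 appeared for 3 cartilage members. Gdf10 was closest to D630045J12Rik (0.903), Papss2 and Chadl, Bmp7 to Bglap2 (0.778), Col22a1 and Ifitm5, and Grem1 to Dpt (0.796), Rspo3 and Scube2. Id1 was closest to Wwtr1 (0.841), Eml1 and Tm4sf1, and Id3 to Slc30a4 (0.862), Zcchc24 and Tcf4. The best r of Grem1 and of Bmp7 were the lowest of the 10 members.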

How the data were processed

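Droplet single-cell RNA libraries were made by the authors from callus and trabecular bone, and the deposited matrices hold whole-number counts of UMIs per gene and barcode, not normalized. The file headers name Cell Ranger 4, whereas the submitters' processing notes name Cell Ranger 5.0.1, Seurat 3.2.0 and mm10. The GC callus matrix lists 7762 barcodes of at least 500 UMIs, and the other 3 list empty droplets too. Total UMIs were 95852254 in control callus, 64388215 in GC callus, 41239842 in control and 45876714 in GC trabecular bone.

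Where empty droplets were listed, cells were called from a UMI cutoff (7534.9, 4790.8 and 4698.8 in control callus, control and GC trabecular bone) and a test against empty droplets (10000 simulations, false discovery rate 0.01). Cells with under 200 genes or over 10% mitochondrial UMIs were removed, and doublets at 0.8% per 1000 cells. Clustering used 2000 variable genes, 30 components, 15 neighbours and Leiden resolution 1. The 10 members, the 61 pathway genes and the lists of dissociation stress and glucocorticoid response genes were left out of it. The clusters were named from 192 markers of 27 classes. Clusters with more markers of another class than of their own among their 10 leading genes entered no comparison. Library pairs shared 5 to 11 cell barcodes, which were kept. Levels are UMIs summed per class and library, as CPM with exact Poisson 95% intervals, and ratios have exact conditional intervals. PCR duplicates are removed by UMIs, and intervals cover counting error only. A gene was called at 2-fold on CPM + 5 with at least 50 UMIs over both libraries. With 1 library per condition no p-value was computed. On simulated Poisson counts for each of the 7 comparisons, 68 to 90 of 100 genes set 4-fold apart were called. The intervals held the true ratio for 94.7% to 96.7% of sampled unchanged genes. These counts had no spread between cells or libraries, so they check the arithmetic of the intervals and not their fit to the data.

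Every member is named, as are pathway genes past 2-fold, the 2 genes of each pathway group with the most callus UMIs and the 3 genes most like each member. The members and lists were chosen with earlier results of these data known. Alternatives were another pseudocount, UMI minimum, cell filter, resolution and depth. Scripts ran in Python 3.11.15 with scipy 1.17.1 for intervals, leidenalg 0.10.2 on graphs from igraph 0.11.9, scikit-learn 1.9.0 for components and neighbours, and pandas 2.3.3, while arrays used numpy 2.4.6 and numba 0.67.0. Figures were drawn with matplotlib 3.10.9.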

Additional observations from a re-analysis of the deposited data

Results flagged for a closer look

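Id1 had class ratios of opposite direction between tissues in 2 classes of the myeloid line. In mature neutrophil-like cells its log2 ratio of GC to control was -3.20 in callus and 0.16 in trabecular bone. The trabecular value was not shared by the clusters that held both libraries, where Id1 was 180 CPM in control and 132 CPM in GC in 1 and 117 and 119 CPM in the other. In granulocyte-monocyte progenitor-like cells it was -1.71 in callus and 0.31 in trabecular bone. The difference between tissues was not tested, since each tissue and condition had 1 library.

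The mixed barcodes of the GC callus, which entered no comparison, held 4 members with intervals above those in the 14 mixed control barcodes. The share of all genes with such intervals was not taken, so this count has no background and is no result about the members. The 14 control barcodes are few, and the part of cartilage RNA in the difference was not tested. Bmp2 was 702 CPM, Bmp6 181 CPM, Gdf5 159 CPM and Id3 167 CPM in the mixed GC barcodes. In the B cell-like cells of the GC callus Bmp2 was 20.6 CPM, and Bmp6 and Gdf5 were 2.94 CPM each. Id3, which B cells express, was 112 CPM there.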

How the results depend on the processing

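No paired analysis was possible because each tissue and condition had 1 library, and for the same reason no replicate could be left out. In chondrocyte-like cells, where 1 member was past 2-fold (Grem1), 2 were with a pseudocount of 1, with the B cell level taken off, with resolution 0.5 or 2, and with the mixed barcodes counted in. None of the members (0) was with a pseudocount of 20, after thinning to equal depth, or in clusters with at least 20% of cells from each library. In hypertrophic cells (0 members) the B cell subtraction gave 1, Id3. In osteoblast-like cells, where 1 was past 2-fold (Gdf5), 0 were with a pseudocount of 20, after thinning, with at least 500 genes per cell, with doublets kept or at resolution 0.5, and 2 with the B cell level taken off. In the classes with 0 members past 2-fold, dropping the minimum of 50 UMIs gave 3 in stromal, 1 in monocytes and macrophages, 2 in endothelial-like and 3 in trabecular stromal cells. Thinning gave 1 in stromal and 1 in trabecular stromal cells, where the B cell subtraction also gave 1. In each of these classes the subtraction added Id3, which B cells express, so its gain is no measure of background. Dropping the minimum measures more members, and the cause of the other shifts was not tested. The share of all genes past 2-fold was taken for the main setting only. Counts of members under the alternatives therefore have no background beside them. The number of members highest in a skeletal class of both callus libraries, 7, stayed between 6 and 8. The log2 ratio of Grem1 in chondrocyte-like cells ranged from -2.42 to -0.56 over the alternatives, and that of Bmp2 from 0.51 to 1.23 there and from -0.37 to 0.74 in hypertrophic cells. Gdf5 in osteoblast-like cells ranged from -2.78 to -0.14. Id1 kept its direction under each alternative run, from -0.86 to -0.31 in hypertrophic and from -0.68 to -0.09 in endothelial-like cells. The callus stromal comparison could not be made with 500 genes, 5% mitochondrial UMIs, doublets kept, resolution 0.5 or every barcode of 1000 UMIs, nor the trabecular one with the first 2 or resolution 0.5. Counting the mixed barcodes in, the 20% limit and keeping clusters with markers of another class were chosen after the data were seen. With few cells and UMIs, differences under about 2-fold in stromal, osteoblast-like and endothelial-like cells are poorly resolved.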
